A study of Mus musculus with 11 samples.

Results

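The suppressor of cytokine signalling (SOCS) family was followed over 11 RNA sequencing libraries of mouse bone marrow derived macrophages (BMDM), which are macrophages grown out of bone marrow cells. The family was taken by gene name and comprises Socs1 to Socs7 and Cish. All 8 members had a row in the count table of 42375 named genes, and all 8 passed the filter on low counts that left 15024 genes for testing. The cells, all from C57BL/6 mice, were labelled M1 or M0, the usual names for classically activated and for unstimulated macrophages. They were exposed for 16 hours to a gapmer, an antisense oligonucleotide whose target RNA is cut by RNase H. The gapmer was directed at the long noncoding RNA MERRICAL (KD) or was the control labelled NS. There were 2 libraries of M1 KD, 3 of M1 NS, 3 of M0 KD and 3 of M0 NS. Labels number the M1 KD libraries 5 and 6 and those of each other group 1, 2 and 4. What the numbers stand for is not stated. If M1 KD was prepared apart, that cannot be told apart from the gapmer in M1, nor in the difference between M1 and M0. No source used here gives the M1 stimulus or the age and number of mice, and the level of MERRICAL itself was not analysed here. Whether libraries of a group came from separate cultures is not stated. The p-values therefore reflect the spread among these libraries alone, and that spread could be technical.

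Total counts per library ran from 30040632 to 43250392. Levels are in CPM, which divides a count by the TMM-scaled total of its library and puts all libraries on the same footing. All 10 macrophage markers looked up were detected, with a summed level of 15264 to 19232 CPM in M1 KD, 14571 to 16425 in M1 NS, 20567 to 22142 in M0 KD and 27516 to 28519 in M0 NS. All 10 M1 markers were higher in M1 NS than in M0 NS. Markers of other cells were also present. The 11 neutrophil markers summed to 198 to 207 CPM in M1 KD, 237 to 309 in M1 NS, 666 to 711 in M0 KD and 1243 to 2205 in M0 NS. Much of the M1 sums was Lcn2, which averaged 151 CPM in M1 KD, 136 in M1 NS, 49.3 in M0 KD and 119 in M0 NS. In M1 NS against M0 NS, 10 of the 11 markers were called lower and 0 higher. The 6 dendritic cell markers summed to 131 to 610 CPM in M1 KD, 107 to 338 in M1 NS and 6.45 to 12.8 over the M0 KD and M0 NS libraries. Most of the M1 sums was 1 gene, Ccr7, which averaged 347 CPM in M1 KD and 230 in M1 NS. Xcr1 was next, at 10.2 and 8.97 CPM. Of the 6 markers, 4 were called higher in M1 NS than in M0 NS and 2, Flt3 and Siglech, lower. Lymphocyte, stromal and erythroid marker sums stayed at or under 37.6 CPM in every library, with Klrb1c at 0 in M1 NS and Pdgfra at 0 in M1 KD. The part of these cells in the values below was not tested, and in bulk RNA fewer cells of a type cannot be told apart from less RNA per cell.

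SOCS proteins are feedback inhibitors of cytokine signalling. Cytokine receptors without kinase activity of their own signal through Janus kinases (JAKs), which phosphorylate STAT transcription factors, and STATs switch on several SOCS genes. Each SOCS protein has an SH2 domain that binds phosphotyrosine and a SOCS box that recruits elongins B and C and a cullin ubiquitin ligase. Socs1 and Socs3 also carry a kinase inhibitory region that blocks JAKs directly. In macrophages, Socs1 is known for restraining interferon signalling, Socs3 for restraining IL-6 signalling through gp130, and Cish as a target of STAT5 downstream of cytokines such as GM-CSF.

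Promoter windows of 300 bases (250 before and 50 from the start site) were held by the RefSeq table (GRCm38.p6) for 4 of the 8 members, Cish, Socs3, Socs1 and Socs4. They are shown for the 3 members that rose most in M1 and whose windows held a searched motif. Capitals mark TTCNNNGAA, the STAT-type motif, in Cish and Socs3, and GAAANNGAAA, an interferon regulatory factor (IRF) type motif, in Socs1. The windows are chr9:107296409-107296708 on the plus strand for Cish, chr11:117969317-117969616 on the minus strand for Socs3 and chr16:10785487-10785786 on the minus strand for Socs1.
Cish: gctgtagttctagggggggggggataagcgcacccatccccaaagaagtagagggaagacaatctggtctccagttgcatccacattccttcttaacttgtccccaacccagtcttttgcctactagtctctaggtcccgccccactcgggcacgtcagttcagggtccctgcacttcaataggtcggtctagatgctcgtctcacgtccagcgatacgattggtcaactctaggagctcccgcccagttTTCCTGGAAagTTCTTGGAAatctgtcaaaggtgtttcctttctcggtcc
Socs3: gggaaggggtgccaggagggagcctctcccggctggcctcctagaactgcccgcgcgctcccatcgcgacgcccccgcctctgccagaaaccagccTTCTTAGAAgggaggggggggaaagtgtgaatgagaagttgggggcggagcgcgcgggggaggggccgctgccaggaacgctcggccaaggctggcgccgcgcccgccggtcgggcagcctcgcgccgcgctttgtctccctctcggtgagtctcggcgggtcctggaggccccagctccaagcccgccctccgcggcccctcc
Socs1: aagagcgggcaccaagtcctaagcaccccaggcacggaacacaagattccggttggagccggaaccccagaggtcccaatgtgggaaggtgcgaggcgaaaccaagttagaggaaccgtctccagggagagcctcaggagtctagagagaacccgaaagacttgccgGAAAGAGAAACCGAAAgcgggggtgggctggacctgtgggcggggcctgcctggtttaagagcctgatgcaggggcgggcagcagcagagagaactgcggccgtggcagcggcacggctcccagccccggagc

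The Cish window held 2 STAT-type matches, TTCCTGGAA at chr9:107296659-107296667 and TTCTTGGAA at chr9:107296670-107296678, which begin 0 and 11 bases downstream of the start. The Socs3 window held 1, TTCTTAGAA at chr11:117969512-117969520, which begins 154 bases upstream. Both strands were searched for each motif. At least 1 STAT-type match was found in 8.30% of the 32851 windows of the table, and at least 2 in 0.457%. The Socs1 window held 2 overlapping IRF-type matches, GAAAGAGAAA at chr16:10785610-10785619 and GAAACCGAAA at chr16:10785604-10785613, which begin 83 and 77 bases upstream. At least 1 IRF-type match was found in 3.44% of all windows and at least 2 in 0.225%. The Socs4 window held neither motif. Distances are from the RefSeq start. In GENCODE M21 the Cish gene begins at chr9:107296026 and the Socs3 gene at chr11:117970047, so the Cish and Socs3 matches lie within those gene bounds. A match describes the letters of the window and not a bound site.

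**Figure D1:**
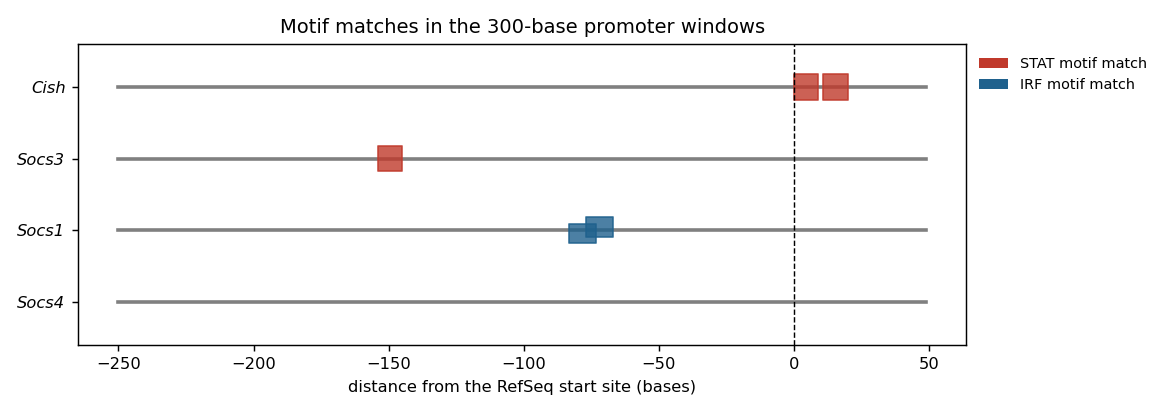
Motif matches (coloured boxes) in the 300-base promoter windows of the 4 SOCS genes with a RefSeq window, against the distance from the start site in bases (dashed line at 0). Cish has 2 STAT-type matches at the RefSeq start, Socs3 has 1 upstream of it, Socs1 has 2 overlapping IRF-type matches and Socs4 has neither.

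Levels were first compared between members per length, as CPM per kilobase (kb) of the principal transcript. In M0 macrophages the family was led by Socs6, and Socs1, Socs2 and Cish were its 3 lowest members. Socs6 averaged 14.96 ± 2.32 CPM per kb in M0 KD and 13.3 ± 2.38 in M0 NS (SD, n = 3 each). Socs5, Socs7, Socs4 and Socs3 followed in M0 NS at 5.38 ± 0.0829, 4.90 ± 0.382, 4.65 ± 0.700 and 3.54 ± 0.739 CPM per kb. Every Socs5 library of M0 NS lay above every Socs7 library, while the ranges of Socs7 and Socs4 overlapped, as did the SDs of Socs4 and Socs3. With all annotated exons in the length, Socs5 averaged 3.90 CPM per kb in M0 NS and stood below Socs7 at 4.74. Socs1, Socs2 and Cish came last in M0 NS at 0.913 ± 0.102, 0.532 ± 0.0795 and 0.404 ± 0.0117 CPM per kb.

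In M1 macrophages the order was different, with Socs1 and Socs3 far above the rest in both M1 groups. Socs1 averaged 286 ± 142 CPM per kb in M1 KD and 128 ± 33.0 in M1 NS (SD, n = 2 and 3). Socs3 averaged 230.3 ± 16.9 CPM per kb in M1 KD and 249 ± 37.7 in M1 NS. Cish came next in M1 KD, at 29.7 ± 6.66 CPM per kb, whereas in M1 NS it stood at 4.74 ± 0.433, close to Socs6 at 4.91 ± 0.554, and below Socs7 at 6.69 ± 0.615. The lowest in M1 KD were Socs2 at 2.30 ± 0.453, Socs4 at 1.78 ± 0.524 and Socs5 at 1.30 ± 0.129 CPM per kb. Length choices bear on these levels: with all annotated exons in the length, Cish averaged 13.2 CPM per kb and Socs2 0.535 in M1 KD.

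Summed over the 8 members, the family stood at 467 and 656 CPM per kb in the M1 KD libraries and at 410, 470 and 331 in M1 NS. In the M0 libraries the sum was 36.6, 36.2 and 33.8 CPM per kb for M0 KD and 36.4, 35.7 and 28.7 for M0 NS. Every M1 library was thus above every M0 library, and the M1 KD and M1 NS sums overlapped. Within the sum, Socs1 made up 39.8% to 58.9% in M1 KD and 28.6% to 34.1% in M1 NS. The share of Socs3 was 33.3% to 51.9% in M1 KD and 60.7% to 63.5% in M1 NS. Cish held 5.24% to 5.35% in M1 KD and 1.09% to 1.37% in M1 NS. In M0 the share of Socs6 was 36.3% to 45.2% in M0 KD and 36.8% to 41.2% in M0 NS.

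**Figure D2:**
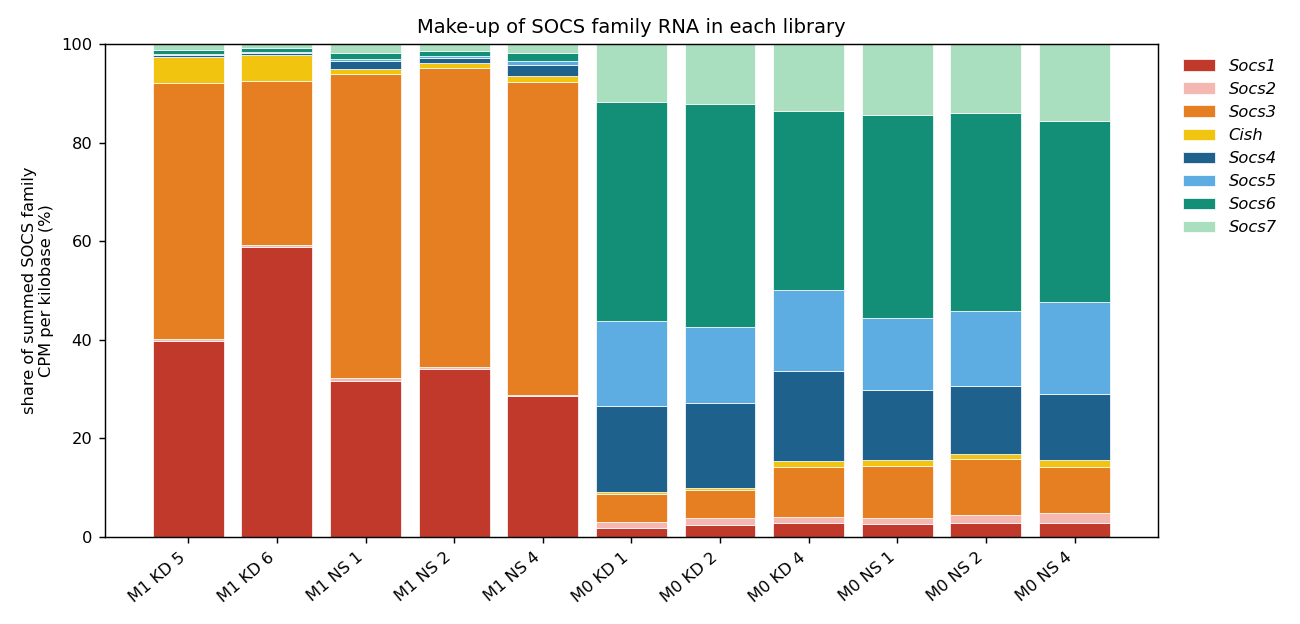
Share of each SOCS gene in the family's summed CPM per kb of principal transcript (percent), 1 stacked bar per library, in the order M1 KD, M1 NS, M0 KD and M0 NS. Socs1 and Socs3 make up most of every M1 bar and Socs6 is the largest piece of every M0 bar.

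The comparison of M1 KD with M1 NS asked how the family differed with the MERRICAL gapmer in activated macrophages. Cish and Socs1 were higher in M1 KD, Socs4, Socs5 and Socs7 were lower, and Socs2, Socs3 and Socs6 did not pass the test. Thus 2 of 8 members were higher and 3 of 8 lower, by edgeR's quasi-likelihood test at an adjusted p under 0.05. Over all 15024 genes 17.6% were called higher and 19.2% lower, so calls of either direction were common. With the 2 compared groups alone, so that M0 libraries did not enter the estimate of spread, 3 members and 3104 genes in all were called. Socs5 and Socs7 then lost their calls. Without M1 KD replicate 6, 3 of 8 members were called. M1 KD and M1 NS values stood apart for 6 of 8 members, against 52.4% of all genes. The median log2 fold change of the members was -0.031, against 0.0010 over all genes.

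Cish, the STAT5-induced member that binds receptors and is best known as a brake on cytokine signals through STAT5, had the largest difference in the family. It stood at 71.2 and 98.01 CPM in M1 KD, against 12.7, 14.9 and 12.9 CPM in M1 NS, from 2594 and 2680 counts against 453, 377 and 450. The lower M1 KD library was thus far above the highest M1 NS library. The log2 fold change was 2.65 (SE 0.26, 95% interval 2.08 to 3.21, edgeR adjusted p = 2.60e-05), a 6.27-fold higher level. By unadjusted p it ranked 155th of the 15024 genes. Cish (ENSMUSG00000032578.7) lies at chr9:107296026-107302784 on the plus strand in GENCODE M21 (GRCm38). Its exons overlap those of 2 genes on the opposite strand, and the strand setting of the counting is not given. Those genes had few counts, with 2 to 7 for Gm17040 in M1 KD and 0 to 2 in M1 NS, and 0 for Gm17041 in every library. How far the overlap bears on the counts of Cish was not tested.

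Socs1, which blocks JAKs and is a main brake on interferon-gamma signalling, was the second member with a higher level in M1 KD. Its level was 540.3 and 1124 CPM in M1 KD, against 378, 467 and 275 CPM in M1 NS. Both M1 KD libraries exceeded all M1 NS libraries, and the higher of them, replicate 6, lay well above the other. The log2 fold change was 1.16 (SE 0.28, 95% interval 0.54 to 1.77, edgeR adjusted p = 0.00755). This call rested on M1 KD replicate 6: without that library the log2 fold change was 0.53 with an adjusted p of 0.156. Socs1 (ENSMUSG00000038037.5) lies at chr16:10782240-10785536 on the minus strand.

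Socs3, the gp130 brake and with Socs1 the other member that blocks JAKs directly, did not pass the test. It had 618.1 and 557 CPM in M1 KD, against 645, 728 and 536 CPM in M1 NS, and these ranges overlapped. The log2 fold change was -0.12 (SE 0.24, 95% interval -0.64 to 0.41, edgeR adjusted p = 0.736), so rises or falls within that interval were not resolved. The per-kb ratio of Socs1 to Socs3 was 0.767 and 1.77 in M1 KD, against 0.514, 0.562 and 0.450 in M1 NS. The ratio was higher in both M1 KD libraries than in any M1 NS library. An exact two-sided permutation test of the ratio gave p = 0.20, which is the smallest p that 2 libraries against 3 allow. Socs3 (ENSMUSG00000053113.3) lies at chr11:117966079-117970047 on the minus strand.

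Socs4 and Socs5 are a closely related pair of SOCS proteins linked to the epidermal growth factor receptor, and both were lower in M1 KD. Socs4 had 9.71 and 14.8 CPM in M1 KD, against 42.1, 30.6 and 47.4 CPM in M1 NS, with no overlap. Its log2 fold change was -1.71 (SE 0.22, 95% interval -2.20 to -1.22, edgeR adjusted p = 1.67e-04), which is a 3.27-fold lower level. Socs5 had 5.63 and 6.47 CPM in M1 KD, against 9.78, 9.30 and 14.97 CPM in M1 NS, again with no overlap. For Socs5 the log2 fold change was -0.91 (SE 0.20, 95% interval -1.34 to -0.48, edgeR adjusted p = 0.00402). Socs4 (ENSMUSG00000048379.9) lies at chr14:47276931-47296102 and Socs5 (ENSMUSG00000037104.9) at chr17:87107679-87137839, both on the plus strand.

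Socs6 and Socs7 are the pair known for binding insulin receptor substrates and other proteins outside the JAK pathway. Socs7 had 38.3 and 34.4 CPM in M1 KD, against 49.7, 49.2 and 42.0 CPM in M1 NS, with no overlap but a small gap. The log2 fold change was -0.37 (SE 0.13, 95% interval -0.65 to -0.095, edgeR adjusted p = 0.0376), and the call was lost in 13 of the alternative settings. Socs6 overlapped between the groups, with 24.8 and 36.8 CPM in M1 KD against 32.2, 25.9 and 30.8 CPM in M1 NS. The Socs6 log2 fold change was 0.053 (SE 0.21, 95% interval -0.40 to 0.51, edgeR adjusted p = 0.861). Socs2, the brake on growth hormone signalling through STAT5, was low, with 4.39 and 5.81 CPM in M1 KD against 4.09, 3.25 and 0.803 CPM in M1 NS. The Socs2 log2 fold change of 0.91 (SE 0.47, edgeR adjusted p = 0.147) did not pass. The gap between the groups was small beside the spread of the M1 NS libraries, of which replicate 4 was the lowest. Socs6 is ENSMUSG00000056153.15. Socs7 (ENSMUSG00000038485.5) lies at chr11:97362551-97398542 on the plus strand and Socs2 (ENSMUSG00000020027.18) at chr10:95385362-95417180 on the minus strand.

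Across all genes, the effect in M1 varied with transcript length. The median log2 fold change was 0.16 over the genes with transcripts of at most 1902 bases and -0.25 over those with transcripts of at least 4599 bases. These medians took the longest transcript of each gene. The principal transcripts of the members called lower had 6877 (Socs4), 4648 (Socs5) and 7015 bases (Socs7), and of those called higher 2850 (Cish) and 2908 (Socs1). Among members not called, Socs6 had 6036 bases, Socs3 2552 and Socs2 2222. With a smooth trend in length and GC content removed from each library, an alternative chosen after seeing the data, Cish was at 2.64, Socs4 at -1.40, Socs5 at -0.83 and Socs1 at 0.92, all still called. Socs7 was then at -0.27 with an adjusted p of 0.0558.

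**Figure D3:**
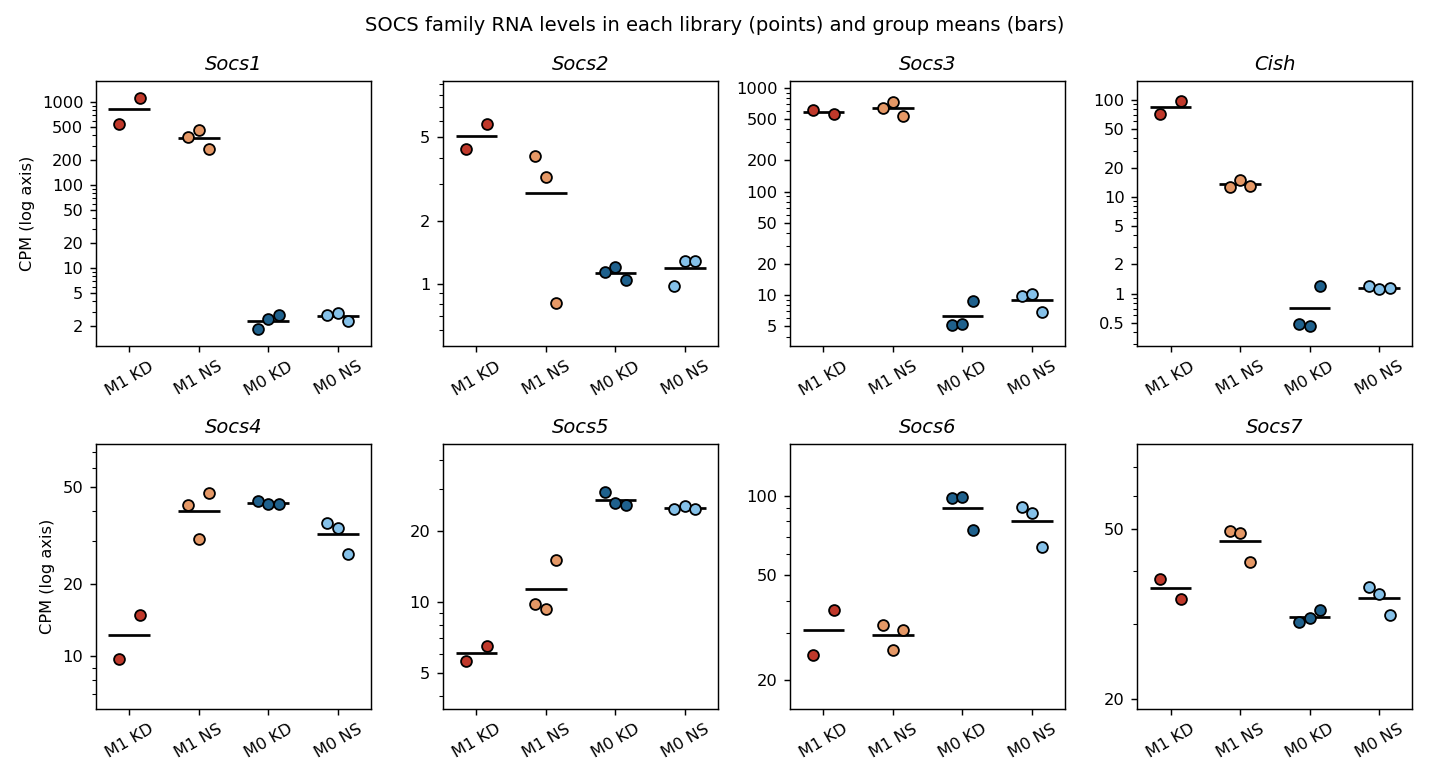
CPM of each SOCS gene in every library (points, log scale) with the group means (horizontal bars) for M1 KD, M1 NS, M0 KD and M0 NS. For Cish the 2 M1 KD points lie above the 3 M1 NS points, for Socs4 they lie below, and for Socs1 the 2 M1 KD points are far apart.

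In M0 macrophages, M0 KD against M0 NS gave no call for any SOCS gene in the fit of all 11 libraries. None of the 15024 genes was called there by edgeR (percent called 0), with 1947 genes at an unadjusted p under 0.05. DESeq2 called 221 genes, none of them a member, and limma-voom 0. The fit shared 1 estimate of spread over the 4 groups. Between libraries of a group, a chi-square of the counts per degree of freedom was 13.7 to 65.4 in M0 and 53.1 to 150 in M1. With the 2 compared groups alone, edgeR called 1103 genes in M0 KD against M0 NS and 3104 in M1 KD against M1 NS. Call counts in M0 and M1 are therefore not directly comparable. M0 KD and M0 NS values stood apart for 2 of 8 members, Socs4 and Socs5, against 35.1% of all genes. Socs4 had 43.99, 42.7 and 42.5 CPM in M0 KD, against 35.5, 33.9 and 26.5 CPM in M0 NS. Its log2 fold change of 0.43 (SE 0.19, edgeR adjusted p = 0.371) did not pass, and it was 0.050 (adjusted p = 0.938) with the length and GC trend removed. Cish was low in M0, with 0.488, 0.458 and 1.20 CPM in M0 KD against 1.19, 1.12 and 1.14 CPM in M0 NS, from 19, 19 and 58 counts against 51, 42 and 48. The Cish log2 fold change was -0.65 (95% interval -1.33 to 0.029, edgeR adjusted p = 0.395). It was -1.28 without M0 KD replicate 4, -0.41 without M0 KD replicate 2 and -0.45 without M0 KD replicate 1, and was called in none of these fits. Socs3 had 5.17, 5.23 and 8.72 CPM in M0 KD, against 9.94, 10.3 and 6.88 CPM in M0 NS, so that 1 library of each group crossed over. Socs2 had 1.13, 1.21 and 1.04 CPM in M0 KD, against 0.978, 1.28 and 1.28 CPM in M0 NS. Apart from Cish and Socs4, the log2 fold changes lay between -0.50 for Socs3 and 0.17 for Socs6.

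The difference between the KD effects in M1 and in M0 was tested itself, as the M1 effect minus the M0 effect. It was above 0 for Cish and Socs1 and below 0 for Socs4 and Socs5, so 2 of 8 members were called in each direction, against 13.1% of all genes called higher and 14.2% lower. The difference was 3.30 on the log2 scale for Cish (SE 0.40, edgeR adjusted p = 2.66e-04) and -2.14 for Socs4 (SE 0.29, adjusted p = 4.43e-04). It was -1.02 for Socs5 (SE 0.26, edgeR adjusted p = 0.0123) and 1.33 for Socs1 (SE 0.41, adjusted p = 0.0309). The Socs1 difference was 0.71 with an adjusted p of 0.166 without M1 KD replicate 6. The Socs5 difference was -0.93 with an adjusted p of 0.0576 without M1 KD replicate 5. For Socs2, Socs3, Socs6 and Socs7 the differences of 0.98, 0.38, -0.12 and -0.23 did not pass.

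**Figure D4:**
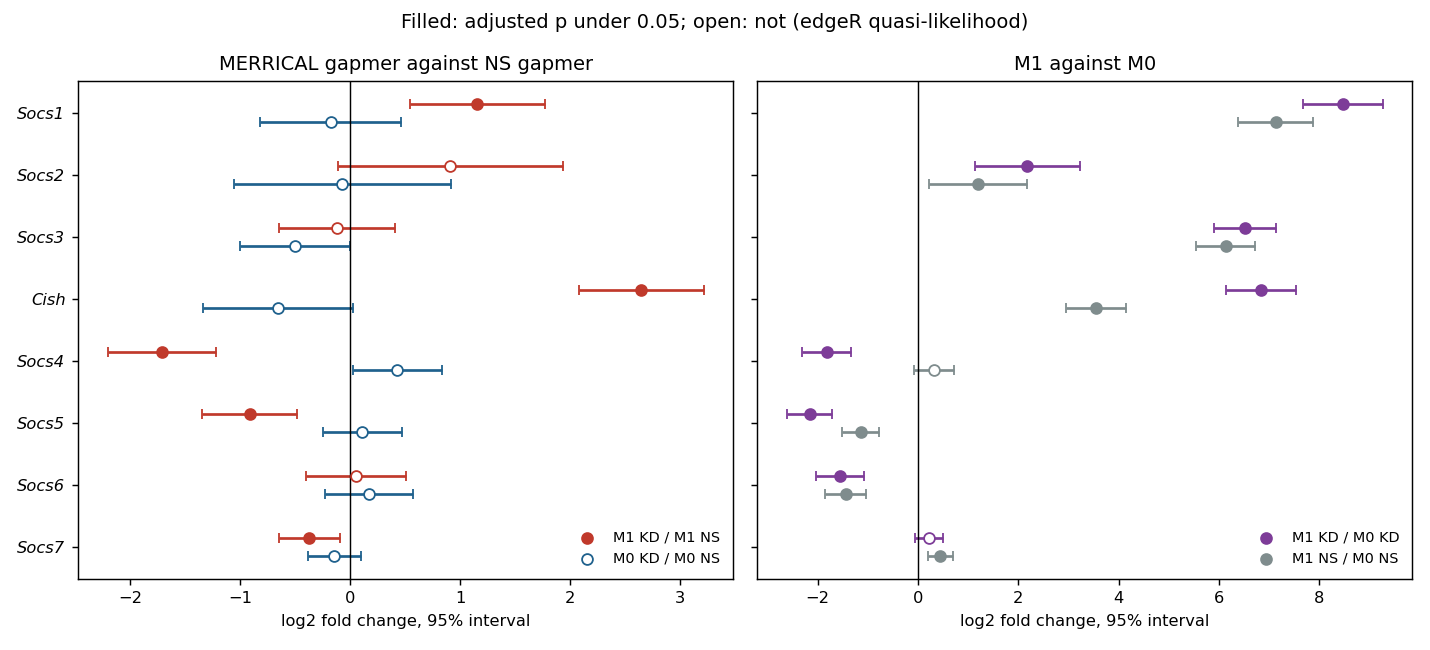
Log2 fold change of each SOCS gene with its 95% interval for the 2 KD comparisons (M1 KD against M1 NS, M0 KD against M0 NS) and for M1 against M0 with each gapmer; filled points passed the adjusted p of 0.05 and open points did not. Cish is at 2.65 and Socs4 at -1.71 in M1 KD against M1 NS, and no point is filled in M0 KD against M0 NS.

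The M1 and M0 states were compared with each gapmer. Both share libraries with the KD comparisons above, so values are only set side by side. Of the 8 members, 5 were higher and 2 lower in M1 NS than in M0 NS, against 26.9% of all genes higher and 28.6% lower. With library totals alone as the scaling, 2348 genes were higher and 6447 lower, against 4044 and 4294 here, and 3 members were higher and 2 lower. With the MERRICAL gapmer, 4 of 8 were higher and 3 lower in M1 KD than in M0 KD, against 26.9% higher and 31.4% lower of all genes. Library totals alone gave 2376 higher and 7077 lower in this comparison, against 4040 and 4715 here, and 4 members were higher and 3 lower. Values stood apart for 6 of 8 members in M1 NS against M0 NS (61.4% of all genes) and for 8 of 8 in M1 KD against M0 KD (74.9% of all genes).

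Socs1, Socs3 and Cish had the largest state differences. Socs1 had 378, 467 and 275 CPM in M1 NS, against 2.72, 2.91 and 2.33 CPM in M0 NS, and its M0 KD libraries had 1.85, 2.46 and 2.71 CPM. Its log2 fold change was 7.13 in M1 NS against M0 NS (SE 0.34, edgeR adjusted p = 1.27e-08) and 8.47 in M1 KD against M0 KD (SE 0.37, adjusted p = 9.78e-09). For Socs3 the log2 fold change was 6.14 with the NS gapmer (SE 0.27, edgeR adjusted p = 7.38e-09) and 6.52 with the MERRICAL gapmer (SE 0.28, adjusted p = 9.78e-09). Cish had the widest gap between the gapmers, which is the tested difference of 3.30 given above. Its log2 fold change was 3.55 in M1 NS against M0 NS (SE 0.28, edgeR adjusted p = 5.68e-07) and 6.85 in M1 KD against M0 KD (SE 0.32, adjusted p = 1.74e-08). Socs2 was at 1.19 in M1 NS against M0 NS (SE 0.45, edgeR adjusted p = 0.0375), and at 2.18 in M1 KD against M0 KD (SE 0.48, adjusted p = 0.00191). The call in M1 NS against M0 NS was lost in 10 alternative settings, at 0.76 with an adjusted p of 0.201 without M1 NS replicate 1.

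Socs4 to Socs7 differed less between the states than Socs1, Socs3 and Cish, and in both directions. Socs6, the leading member in M0, was lower in M1, with 32.2, 25.9 and 30.8 CPM in M1 NS against 90.5, 86.3 and 63.8 CPM in M0 NS, and with 24.8 and 36.8 CPM in M1 KD against 97.9, 98.8 and 74.2 CPM in M0 KD. The state difference was -1.44 on the log2 scale with the NS gapmer (SE 0.19, edgeR adjusted p = 3.96e-05) and -1.55 with the MERRICAL gapmer (SE 0.22, adjusted p = 6.70e-05). Socs5 was likewise lower, by -1.14 in M1 NS against M0 NS (edgeR adjusted p = 1.15e-04) and -2.16 in M1 KD against M0 KD (adjusted p = 3.13e-06). Its M0 libraries held 29.2, 26.1 and 25.7 CPM in M0 KD and 24.8, 25.4 and 24.7 CPM in M0 NS. Socs4 did not pass in M1 NS against M0 NS, where its ranges overlapped and its log2 fold change was 0.32 (SE 0.19, edgeR adjusted p = 0.160). It was called there with the trend removed (0.48, adjusted p = 0.00362) and without M1 NS replicate 2 (0.49, adjusted p = 0.0356), and was at -0.053 with library totals alone (adjusted p = 0.825). In M1 KD against M0 KD, Socs4 was lower, at -1.82 (SE 0.22, edgeR adjusted p = 2.56e-05). In that comparison the median log2 fold change was 0.24 over genes with transcripts of at most 1902 bases and -0.48 over those of at least 4599 bases. With the trend removed, Socs4 was at -0.97 and Socs6 at -0.83, both still called lower. Socs7 was slightly higher in M1 NS than in M0 NS, at 0.45 (SE 0.11, edgeR adjusted p = 0.00460), and at 0.22 in M1 KD against M0 KD it did not pass (adjusted p = 0.149). In M1 KD against M0 KD it was called with the trend removed (0.60, adjusted p = 3.08e-04), with the 2 groups alone (0.31, adjusted p = 0.0322) and without M1 NS replicate 4 (0.27, adjusted p = 0.0398), and was at -0.27 with library totals alone (adjusted p = 0.0732). Its M0 libraries held 30.3, 30.9 and 32.3 CPM in M0 KD and 36.5, 35.3 and 31.4 CPM in M0 NS. The call of Socs7 in M1 NS against M0 NS depended on the scaling: with library totals alone the log2 fold change was 0.060 with an adjusted p of 0.655, where the median of all genes was -0.42. With the trend removed it was 0.75 and still called.

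Other genes of the pathway were counted in lists by role, and the share of all genes called in each comparison, given above, applies to these counts too. In M0 KD against M0 NS no gene of any list was called by edgeR in the fit of all 11 libraries, as for the genome as a whole. Among ligands that signal through JAKs, 14 of 22 passed the low-count filter, and 2 were higher and 4 lower in M1 KD than in M1 NS (median log2 fold change -0.73). Osm, the gene of oncostatin M, was higher, at 41.3 ± 3.39 CPM in M1 KD and 22.8 ± 2.12 in M1 NS (SD, n = 2 and 3), while Il12b, the shared subunit of IL-12 and IL-23, was lower, at 156 ± 81.8 CPM in M1 KD and 682 ± 215 in M1 NS. Between M1 NS and M0 NS, 12 ligands were higher in M1 NS and 1 lower (median 3.31), and the rise was largest for Il12b, at a log2 fold change of 9.74.

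Of 28 receptor chains tested, 10 were higher and 3 lower in M1 KD than in M1 NS (median 0.46). Il7r, the IL-7 receptor chain, had a log2 fold change of 1.34 (SE 0.22, edgeR adjusted p = 7.09e-04) and Il6ra, the IL-6 binding chain, of -1.23 (SE 0.16, adjusted p = 1.41e-04). Among those higher, and named after their values were seen, were Csf2rb, the beta chain of the GM-CSF receptor, and its mouse relative Csf2rb2. Csf2rb averaged 845 ± 179 CPM in M1 KD and 432 ± 43.3 in M1 NS, and Csf2rb2 663 ± 173 CPM in M1 KD and 331 ± 8.75 in M1 NS. Csf2ra, the alpha chain of the GM-CSF receptor, overlapped between the groups, at 386 to 424 CPM in M1 KD and 296 to 512 in M1 NS. The GM-CSF gene Csf2 did not pass the filter and had 0 counts in both M1 KD libraries. Il3ra, the alpha chain of the IL-3 receptor and also named after its values were seen, did not overlap. It had 100 to 109 CPM in M1 KD and 32.7 to 65.5 in M1 NS. The part of these receptor genes in the level of Cish was not tested. Of the 28 chains, 10 were higher in M1 NS than in M0 NS, led by Il12rb1 at 5.76, and 8 lower. Among chains whose log2 CPM averaged 3 or more, the interferon-gamma receptor chain Ifngr1 fell most, at -2.46. Chains at lower levels had larger falls, with Lifr at 0.678 CPM in M1 NS and 13.4 in M0 NS, and Epor at 0.0942 and 5.55 CPM.

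Few of the kinases and transcription factors themselves were called between M1 KD and M1 NS. Of 11 JAK and STAT genes none was higher and 1 was lower, Stat6, which acts downstream of IL-4, at a log2 fold change of -0.44 (SE 0.14, edgeR adjusted p = 0.0276). In M1 NS against M0 NS, 8 of these 11 were higher and 0 lower (median 1.29), and Jak2 stood at 617.5 ± 91.1 CPM in M1 NS and 61.3 ± 12.5 in M0 NS (SD, n = 3 each).

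Other negative regulators of JAK-STAT signalling were called in both directions, with 2 of 14 higher and 5 lower in M1 KD than in M1 NS (median -0.16). The adaptor gene Sh2b2 was higher, at 60.7 ± 14.5 CPM in M1 KD and 22.9 ± 2.93 in M1 NS. Cbl, a ubiquitin ligase for activated receptors and kinases, was lower, at 73.6 ± 14.5 CPM in M1 KD and 261 ± 49.4 in M1 NS. In M1 NS against M0 NS, 8 were higher and 2 lower, with Usp18, which restrains type I interferon signalling, at a log2 fold change of 4.40 and the STAT inhibitor gene Pias3 at -0.63.

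Of 6 elongin and cullin partners of the SOCS box, 0 were higher and 2 lower in M1 KD than in M1 NS (median -0.19). Tceb1, the gene of elongin C, averaged 54.4 ± 5.50 CPM in M1 KD and 85.2 ± 5.49 in M1 NS. Of these 6, 4 were higher in M1 NS than in M0 NS, led by Cul2 at 1.40. Of 15 other SOCS-box genes tested, 2 were higher and 2 lower in M1 KD than in M1 NS (median -0.17), with Spsb3 at 0.95 and Wsb1 at -1.18. Of the 15, 6 were higher and 4 lower in M1 NS than in M0 NS, with Vhl, a substrate receptor for hypoxia-inducible factors, at 0.93 and Spsb2 at -0.65. Among 9 proteins outside the JAK pathway that SOCS proteins are known to bind, 2 were higher and 1 lower in M1 KD than in M1 NS (median -0.09), with the insulin receptor substrate gene Irs2 at 0.88 and the Toll-like receptor adaptor gene Tirap at -1.11. In M1 NS against M0 NS, 1 was higher and 5 lower (median -1.60), with the focal adhesion kinase gene Ptk2 at 1.66 and the macrophage growth factor receptor gene Csf1r at -2.50.

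Known STAT targets were counted beside the family, because several SOCS genes are STAT targets themselves. Of 13 STAT3 targets, 4 were higher and 2 lower in M1 KD than in M1 NS (median 0.035), with the transcription factor gene Nfil3 at 1.64 and Hif1a at -1.19. Of 9 STAT5 targets 2 were higher and 2 lower (median -0.18). The kinase gene Pim1, which stands in both lists, was higher, at 1346 ± 5.68 CPM in M1 KD and 637 ± 126 in M1 NS. The cyclin gene Ccnd2 was lower, at 119 ± 60.6 CPM in M1 KD and 352 ± 186 in M1 NS. Its ranges overlapped, at 75.9 to 162 CPM in M1 KD and 140 to 487 in M1 NS. The called STAT5 targets were thus split in direction. In M1 NS against M0 NS, 10 STAT3 targets were higher and 1 lower, with Pim1 at 3.48. There, 7 STAT5 targets were higher and 1 lower, with Ccnd2 at 5.56. The M1 markers, all higher in M1 NS than in M0 NS, were split between M1 KD and M1 NS, where 2 of 10 were higher and 4 lower, with the chemokine gene Cxcl9 at 1.08 and Il12b at -2.13.

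The genes whose log2 CPM followed each member most closely over the 11 libraries were listed as a description, and all 11 points share the same states and gapmers. For Socs1 they were Txn1, Hspa1a and 1110038F14Rik (Pearson r 0.998, 0.997 and 0.997), and for Socs3 they were Serpina3f, Slco3a1 and Stx11 (r 0.998 each). Cish was followed most closely by H2-DMb1, Nmnat1 and Akr1a1 (r 0.995, 0.994 and 0.991). The closest to Socs4 were Ythdf3, Rnpc3 and RP23-444I6.3 (r 0.993, 0.992 and 0.989), and to Socs5 they were Gspt2, Pkd2 and Pspc1 (r 0.992, 0.991 and 0.991). Socs6 was closest to Pon2, Zfp810 and Bcl2l11 (r 0.989, 0.988 and 0.983), Socs7 to Mapkapk2, Syk and Cmtr1 (r 0.985, 0.983 and 0.968) and Socs2 to Mppe1, Dmtn and Gm4952 (r 0.979, 0.973 and 0.964). No gene stood among the closest 3 of more than 1 member.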

How the data were processed

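RNA sequencing was analysed from 2 M1 KD, 3 M1 NS, 3 M0 KD and 3 M0 NS libraries, grouped by the labels. The submitters' processing notes name the GRCm38 genome, featureCounts of Subread 1.5.2, STAR 2.5.2b and Trimmomatic 0.36. The deposited count table holds raw counts per gene. The authors' second table holds a normalized signal for 22812 genes, which equalled the count divided by 1 constant per library and was not tested. An entry without a gene name held at most 0.000305% of a library and was left out.

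Tests on the counts used edgeR 4.0.16 (R 4.3.3). Low counts were filtered with filterByExpr (minimum count 10, minimum total 15) and libraries scaled by TMM factors. All 11 libraries entered 1 quasi-likelihood fit of the 4 groups, because M1 KD had 2 libraries. A gene was called at p under 0.05 after Benjamini-Hochberg adjustment across the 15024 genes. CPM used TMM-scaled totals, and CPM per kb the longest APPRIS principal transcript of GENCODE M21, which may not be the authors' annotation. The procedure was tested on simulated data.

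The members and gene lists were chosen with earlier results of these data known. The result of 1 list is not reported here. All members are named. From each list the called gene with the largest rise and the largest fall was named among genes whose log2 CPM averaged 3 or more, with values given for M1 KD against M1 NS and for M1 NS against M0 NS. For patterns, the 3 genes with the highest correlation of log2 CPM (prior count 2) were taken. Alternatives were median-of-ratios factors, library totals alone, other filters, DESeq2 1.42.0, limma-voom (limma 3.58.1), the 2 compared groups alone, a block on label numbers, each library left out and, chosen after seeing the data, removal of a length and GC trend and a 9-library fit without a block.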

Additional observations from a re-analysis of the deposited data

Results flagged for a closer look

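For 4 SOCS genes the difference of KD from NS was itself different between M1 and M0 when tested (edgeR, all 11 libraries in the fit). M1 KD carries label numbers of no other group, so a separate preparation of its libraries cannot be told apart from the gapmer. Cish was 3.30 higher on the log2 scale in its M1 effect than in its M0 effect. Its M1 KD libraries had 71.2 and 98.01 CPM, against 12.7 to 14.9 CPM in M1 NS, while its M0 KD libraries had 0.458 to 1.20 CPM, against 1.12 to 1.19 CPM in M0 NS. For Socs4 the difference was -2.14, with an effect of -1.71 in M1 and 0.43 in M0, of which the M0 effect was not called. Socs5 differed by -1.02, with effects of -0.91 in M1 and 0.11 in M0. For Socs1 the difference was 1.33, with effects of 1.16 in M1 and -0.18 in M0, and its 2 M1 KD libraries lay at 540.3 and 1124 CPM.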

How the results depend on the processing

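Cish and Socs4 kept their direction and their call in M1 KD against M1 NS under all 19 alternatives run, with log2 fold changes of 2.39 to 2.85 and of -2.05 to -1.40. The tested differences between the M1 and M0 effects also held for Cish (3.05 to 3.92) and Socs4 (-2.47 to -1.45) under all 18 alternatives run. With the 2 compared groups alone, 3 SOCS genes and 3104 genes in all were called in M1 KD against M1 NS. Leaving out 1 library gave 3 to 5 SOCS genes and 3658 to 5796 genes, with the lowest gene count without M1 KD replicate 5 and the lowest SOCS count without M1 KD replicate 6. In M0 KD against M0 NS, 385 genes were called with no filter, 221 by DESeq2 and 1103 with the 2 groups alone, where 1 SOCS gene, Socs4, was called (0.44, adjusted p = 0.0464). Leaving out 1 library gave 0 to 1 genes there.

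Among single genes, Socs7 in M1 KD against M1 NS ranged from -0.46 to -0.27 and Socs5 was lost with the 2 groups alone (-0.87, adjusted p = 0.0544). Socs2 was called in M1 KD against M1 NS with no filter (0.92, adjusted p = 0.0356). The Socs1 difference was lost in 8 of 18 alternatives, among them limma-voom (1.28, adjusted p = 0.0816) and the trend removal (0.87, adjusted p = 0.112).

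Signs turned round only for values that were not called. In M1 KD against M1 NS, Socs6 ranged from -0.26 to 0.31 with 1 library left out and was at -0.037 without M1 NS replicate 2. With the length and GC trend removed, Socs1 was at 0.047 and Socs6 at -0.16 in M0 KD against M0 NS, and the differences were -0.10 for Socs3 and 0.46 for Socs6. The Socs6 difference ranged from -0.43 to 0.14 with 1 library left out. With library totals alone, Socs4 was at -0.053 in M1 NS against M0 NS and Socs7 at -0.27 in M1 KD against M0 KD, where the median of all genes was -0.42 and -0.59. The cause of these changes was not tested.

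Labels number the M1 NS, M0 KD and M0 NS libraries 1, 2 and 4 without saying what a number stands for. Deviations of same-numbered libraries from their group means correlated at -0.11 to 0.14, and 7 of 18 best matches were with the same number, so the numbers were not read as pairs. With the replicate number as a block over these 9 libraries, 0 genes were called in M0 KD against M0 NS (0 without the block), and 8048 genes and 6 SOCS genes in M1 NS against M0 NS, against 8350 and 7 without the block. No paired analysis was possible with M1 KD because its numbers, 5 and 6, are in no other group. The test of 2 groups alone was not run for the difference. The depth limits Cish and Socs2 in M0, where libraries held 19 to 58 counts of Cish and 42 to 54 of Socs2.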
